A study of Mus musculus with 2 samples.

Results

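*Gpihbp1*, *Lpl* and 8 further genes of lipid uptake (*Cd36*, *Fabp4*, *Fabp5*, *Plin2*, *Pparg*, *Vldlr*, *Slc27a3* and *Apoe*), 10 of the 27998 genes counted, were followed through the cell types of the neonatal mouse lung in room air and in hyperoxia. *Gpihbp1* was chosen by its measured values, because its level in endothelial cells (ECs) was lower in hyperoxia, so its difference there is a description and no test supports it. The other genes were listed for their roles in the uptake and handling of lipid, with earlier results of these data known. The lungs came from C57BL/6 mice that lived in 21% or 80% oxygen from birth to postnatal day 14. For each group the lungs of 8 mice were perfused, digested with enzymes, cleared of red blood cells and pooled into 1 library of single cells, so neither group had a replicate.

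Triglyceride-rich lipoproteins are too large to leave the blood, and their fat is taken up in steps at the capillary wall. GPIHBP1, a glycolipid-anchored protein of capillary ECs, binds lipoprotein lipase (LPL) that other cells have secreted, carries it across the EC and holds it at the lumen, where LPL frees fatty acids. CD36 helps fatty acids across the membrane, fatty acid-binding proteins (FABP4, FABP5) carry them in the cytosol, and perilipin 2 (PLIN2) coats the droplets in which cells store them. In the lung, alveolar macrophages clear surfactant lipid, alveolar type 2 (AT2) cells make it and lipid-laden alveolar fibroblasts supply its precursors.

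The deposited counts were unique molecular identifiers (UMIs, 1 for each captured mRNA molecule) for 4234 barcodes with 39593888 UMIs in room air and 13223 barcodes with 111934936 UMIs in hyperoxia. After the filters 3680 and 10472 cells remained, with medians of 8057 and 7225 UMIs per cell. They were clustered without the lipid genes studied here and named from marker genes, and each name carries "-like" because it was rebuilt from the counts. Levels are counts per 1000000 UMIs (CPM) over the summed cells of a type, with exact 95% Poisson intervals. Where a pair of values is given, the first is from room air and the second from hyperoxia. Ratios are hyperoxia over room air, with exact 95% conditional intervals. All intervals cover counting error only and compare these libraries, not the conditions. Of 25 named types, 16 had at least 50 cells in each library and were compared. A gene was counted as past 2-fold when its mean level was at least 10 CPM and the ratio at least 2 or at most 0.5. The libraries clustered apart. All gCap-like cells, the general capillary ECs, of either library lay in clusters that were over 90% of 1 library, as did 77.6% and 80.2% of the aCap-like cells (aerocytes) and 80.1% and 87.3% of the alveolar fibroblast-like cells in room air and hyperoxia. Library and oxygen group cannot be told apart. The libraries shared 17 barcode sequences, of which 13 were kept in both, only 2 of them in the same cell type.

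The markers by which capillary ECs were named were present in both libraries, some at lower levels in hyperoxia. Of 8 gCap markers, *Cd93* was 1739 CPM in room air and 2674 in hyperoxia, *Sema3c* 1293 and 2433 and *Cxcl12* 506 and 569. *Plvap* was 962 and 884 CPM, *Ptprb* 2165 and 1754 CPM and *Tek* 488 and 400 CPM. *Aplnr*, the apelin receptor, was 326 and 120 CPM and *Kit* 516 and 250, so these 2 markers were themselves past 2-fold lower in the gCap-like cells of hyperoxia. Of 8 aCap markers, *Emp2* at 3686 and 1758 CPM and *Ednrb* at 1285 and 551 CPM were past 2-fold lower in aCap-like cells, and *Fibin* was 736 and 384 CPM. *Car4* was 1693 and 1216 CPM, *Tbx2* 754 and 672 CPM and *Apln* 696 and 613 CPM, while *Prx* was 639 and 779 CPM and *Nckap5* 129 and 134 CPM. Red cell markers (6 genes) summed to 49.7 and 96.8 CPM in gCap-like cells and to 218 and 101 CPM in aCap-like cells, and platelet markers to at most 16.3 CPM in both. The 6 adipocyte markers summed to 0.648 and 0.438 CPM in gCap-like and 0.782 and 0 CPM in aCap-like cells. The part of blood cells in the results was not tested.

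The genes lie apart in the genome (GRCm38, GENCODE vM21 annotation). *Gpihbp1* lies at chr15:75596628-75599481 on the plus strand, *Lpl* at chr8:68880491-68907448 (plus), *Cd36* at chr5:17781690-17888801 (minus) and *Apoe* at chr7:19696109-19699188 (minus). *Fabp5* at chr3:10012548-10016607 (plus) and *Fabp4* at chr3:10204088-10208576 (minus) are near neighbours on chromosome 3, with 187 kb between them, and *Slc27a3* lies on the same chromosome at chr3:90385239-90389938 (minus). *Plin2* is at chr4:86648386-86670060 (minus), *Pparg* at chr6:115360951-115490399 (plus) and *Vldlr* at chr19:27216484-27254231 (plus). All 10 are protein-coding genes, and the positions are those of whole genes.

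The genes divided the lung among themselves. Endothelial-like cells held 96.4% and 97.6% of the *Gpihbp1* UMIs in room air and hyperoxia. ECs also held 73.1% and 59.7% of the *Cd36* UMIs. *Lpl* was foremost a gene of alveolar macrophage-like cells, with 56.4% and 67.3% of its UMIs, and so was *Pparg*, with 47.9% and 76.6%. Interstitial macrophage-like cells held 43.2% and 35.2% of the *Apoe* UMIs, and most *Slc27a3* UMIs lay in alveolar fibroblast-like cells (62.2% and 70.8%). These shares also move with the numbers of cells of each type.

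**Figure D1:**
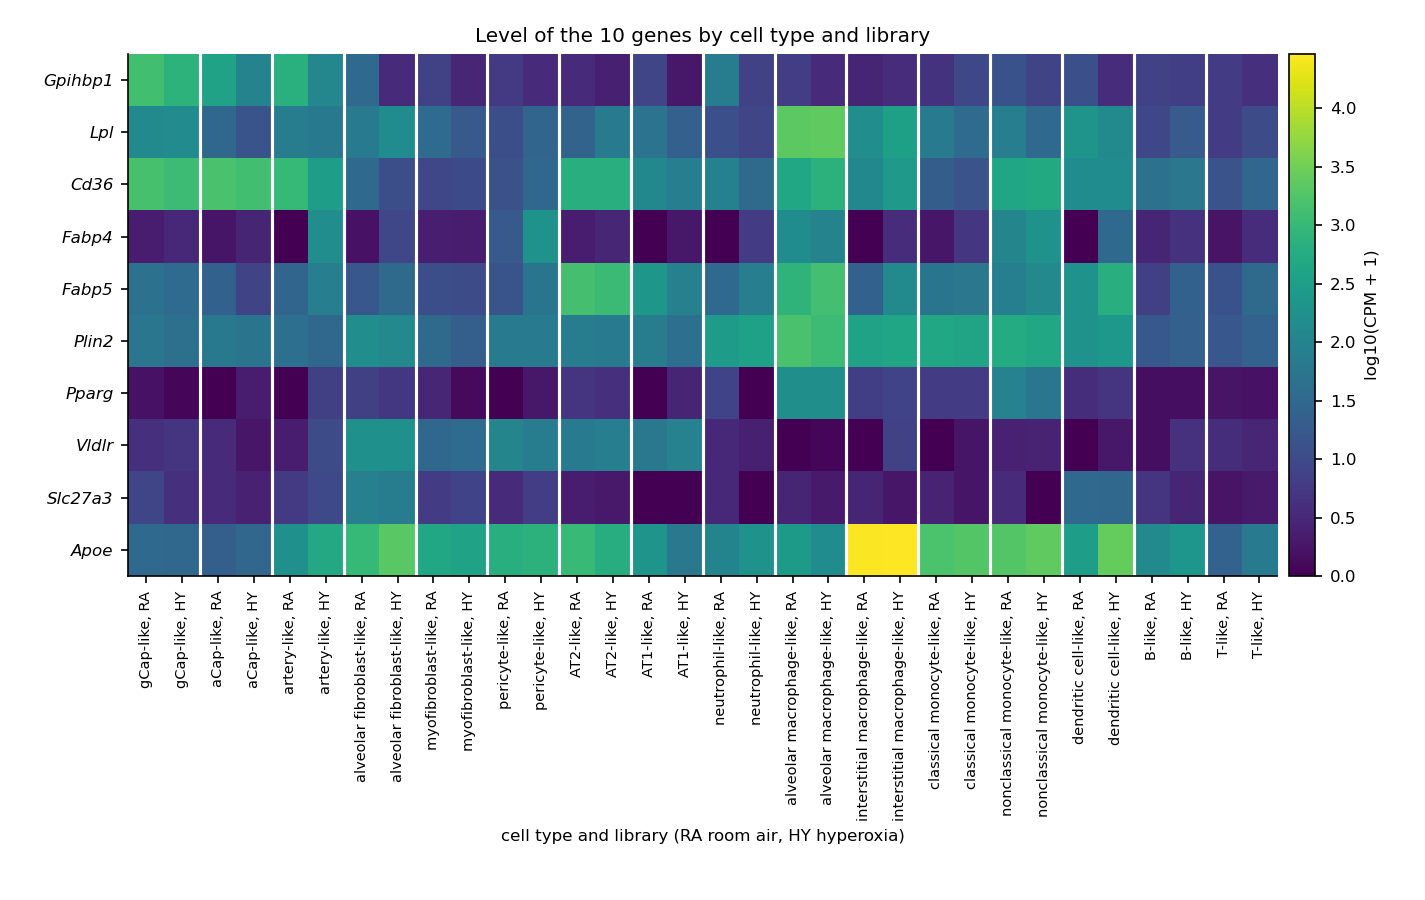
Levels of the 10 genes (rows) in 16 cell types, room air and hyperoxia side by side, as log10(CPM + 1) by colour. *Gpihbp1* is bright in endothelial-like types, and *Lpl*, *Plin2* and *Pparg* in alveolar macrophage-like cells, in both libraries.

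*Gpihbp1*, the carrier of LPL, was lower in hyperoxia in each EC type with at least 50 cells in each library. In gCap-like cells, 585 in room air and 800 in hyperoxia, it was 1276 CPM (1244 to 1309) and 756 CPM (736 to 777), from 5913 and 5183 UMIs. The ratio was 0.593 (0.571 to 0.615), or -0.75 on the log2 scale. It did not pass 2-fold, beside 2.47% of the 8105 genes tested that were past 2-fold lower and 1.78% that were past 2-fold higher in these cells. In the cluster of 578 room air and 31 hyperoxia cells, which held nearly all of the room air gCap-like cells, the levels were 1286 and 903 CPM, a log2 ratio of -0.51 (-0.72 to -0.31).

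The lower level was spread over the gCap-like cells. A *Gpihbp1* UMI was found in 95.2% of the room air cells and 88.6% of the hyperoxia cells, at medians of 7592 and 8644 UMIs per cell. In B-like cells, which should lack the gene, the shares were 3.18% and 1.78% at medians of 4493 and 2871 UMIs, and the levels 6.55 and 5.66 CPM, a measure of free RNA. When each cell was thinned to 2000 UMIs, 86.0% (82.9 to 88.8, exact Clopper-Pearson) of 559 room air cells and 66.9% (63.5 to 70.2) of 791 hyperoxia cells had a UMI, against 1.62% and 1.33% of B-like cells. Cells with no UMI made up 13.95% and 33.1%, cells with 5 or more 12.5% and 5.18%, and the mean was 2.44 and 1.47 UMIs per cell. At each number of UMIs from 2 upward the share of cells was smaller in hyperoxia.

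**Figure D2:**
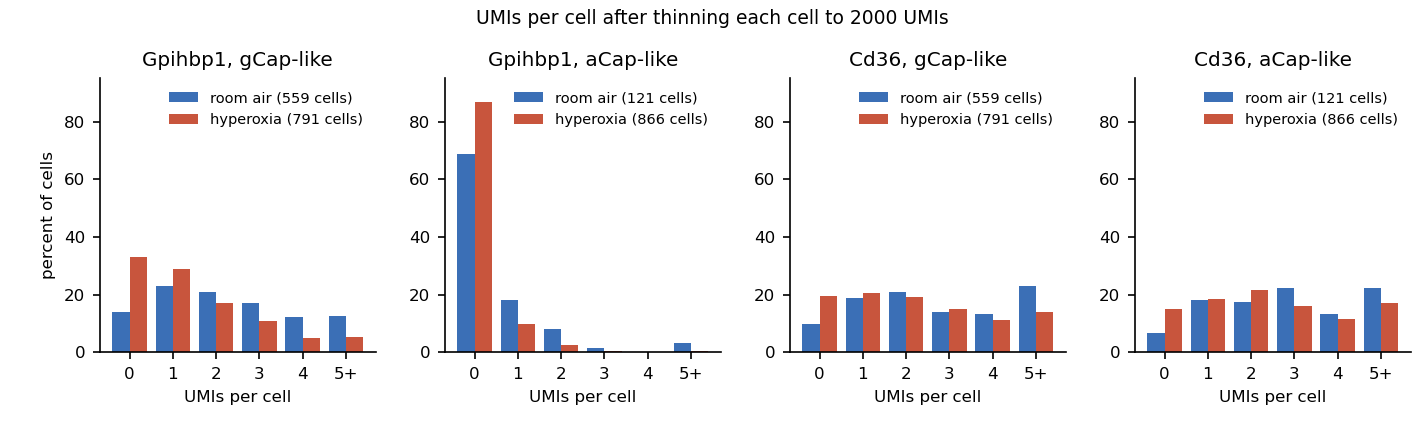
Percent of cells (vertical axis) with 0, 1, 2, 3, 4 and 5 or more UMIs (horizontal axis) of *Gpihbp1* and *Cd36* after thinning to 2000 UMIs per cell, in gCap-like and aCap-like cells of room air and hyperoxia. For *Gpihbp1* in gCap-like cells the share at 0 is 13.95% in room air and 33.1% in hyperoxia.

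In aCap-like cells (152 and 1078 cells) *Gpihbp1* was 367 CPM (335 to 402) in room air against 98.1 CPM (91.2 to 105) in hyperoxia, a ratio of 0.267 (0.238 to 0.30). This passed 2-fold lower, as 2.9% of 8107 genes did, with 2.21% past 2-fold higher. A UMI was found in 51.3% and 27.5% of cells, and in 31.4% and 13.3% after thinning to 2000 UMIs. Most of these cells lay in clusters of 1 library. In the only aCap-like cluster with at least 20 cells of each (34 and 213 cells), the levels were 150 and 119 CPM, from 7 and 32 UMIs. The log2 ratio was -0.33 with an interval from -1.53 to 1.10 that spans no difference. Cells of this cluster had on average far fewer UMIs than the medians of 7019 and 7113 of aCap-like cells.

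Artery-like cells (99 and 159) formed 1 cluster shared by the libraries. *Gpihbp1* was 693 CPM (639 to 752) there in room air against 115 CPM (98.8 to 134) in hyperoxia, a ratio of 0.166 (0.140 to 0.197), beside 5.2% of 8310 genes past 2-fold lower and 5.68% higher. The order was not stable. The log2 ratio of -2.59 became 0.091 at clustering resolution 0.5, 0.15 at resolution 2 and 0.87 with the stricter cell filter. Vein-like cells, only 34 in room air and 110 in hyperoxia, had 510 and 213 CPM. The 12 and 45 lymphatic-like cells had 80.9 and 94.3 CPM, a ratio of 1.17 with an interval from 0.607 to 2.38.

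In room air the order of *Gpihbp1* was gCap-like, artery-like and aCap-like, each apart from the next by its interval. In hyperoxia gCap-like cells were again highest, and the intervals of artery-like and aCap-like cells overlapped. Outside ECs the room air levels of 77.7 CPM in neutrophil-like and 32.0 CPM in alveolar fibroblast-like cells came from few cells. Of the neutrophil-like UMIs 97.1% lay in 5 cells, and of the 102 alveolar fibroblast-like UMIs 92 lay in 1 cluster that held 44 room air cells. Their hyperoxia levels were 6.66 and 2.56 CPM, near the 5.66 CPM of B-like cells. The cells of that fibroblast-like cluster, 44 and 145, had on average far fewer UMIs than the medians of 15746 and 11054 of their type.

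**Figure D3:**
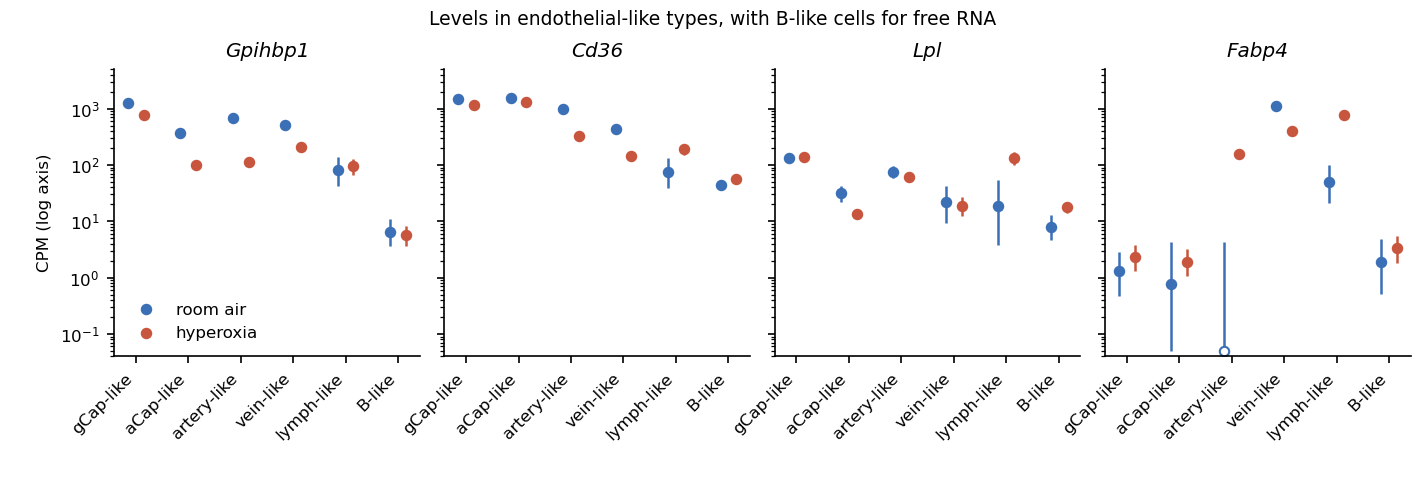
Level in CPM (vertical log axis) of *Gpihbp1*, *Cd36*, *Lpl* and *Fabp4* in 5 EC-like types and in B-like cells, room air and hyperoxia, with exact 95% Poisson intervals as bars and an open circle at the foot of the axis for 0 UMIs. *Gpihbp1* is lower in hyperoxia in gCap-like (1276 and 756), aCap-like and artery-like cells, while *Lpl* in gCap-like cells is 131 and 141.

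Over all endothelial-like cells (1045 and 2568) *Gpihbp1* was 942 CPM in room air against 418 CPM in hyperoxia, a wider gap than in gCap-like cells. Of these cells 152 were aCap-like in the room air library and 1078 in the hyperoxia library. With the makeup of EC types held as in room air and the levels of hyperoxia, the value was 568 CPM. With the makeup of hyperoxia and the levels of room air it was 736 CPM, so each step alone lay between the observed values. For *Cd36* the corresponding values were 992 and 1298 CPM, beside 1290 and 1027 CPM observed, and for *Lpl* 107 and 82.7 CPM, beside 107 and 76.4 CPM.

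ECs in clusters that could not be named held 9.03% and 23.9% of the endothelial *Gpihbp1* UMIs in room air and hyperoxia. The largest source was a cluster led by genes of dividing cells (47 and 127 cells), in which *Gpihbp1* was higher in hyperoxia, 647 CPM (587 to 713) and 903 CPM (856 to 952), against the order in gCap-like cells. The sum of the 8 gCap markers in this cluster was likewise 4710 and 6352 CPM, and *Top2a*, a gene of dividing cells, was 1422 and 633 CPM. *Sftpc*, a gene of AT2 cells, was 7561 CPM there in room air and 387 CPM in hyperoxia, and its part in the result was not tested. In an unnamed EC cluster with AT2 genes among its leading genes (88 and 173 cells) *Gpihbp1* was 992 and 681 CPM.

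The genes most like *Gpihbp1* over the 16 cell types of both libraries (32 points, Pearson's r of log2(CPM + 1), among 7733 genes with at least 50 CPM at some point) were *Scn3b* (0.951), *Prdm8* (0.947), *Clec14a* (0.944), *Unc45b* (0.942) and *Aplnr* (0.94). The points of a library share its cells and depth, and the measure describes likeness only. In gCap-like cells these genes had different ratios. *Scn3b*, a sodium channel subunit gene, was 364 and 319 CPM and *Clec14a*, an EC surface lectin gene, 775 and 738 CPM. *Prdm8* was 150 and 63.2 CPM and *Unc45b*, a myosin chaperone gene, 138 and 92.7 CPM. With *Aplnr* at 326 and 120 CPM, *Prdm8* and *Aplnr* were past 2-fold lower and the other 3 were not.

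*Gpihbp1* sits beside the Ly6 genes, to whose family it belongs. Within 1 Mb to either side 78 further genes were counted, and 23 of them had a mean of at least 10 CPM in gCap-like cells. None was past 2-fold lower and only *Ly6c1* was past 2-fold higher, at 223 and 534 CPM. *Ly6a* was 689 and 1305 CPM and *Ly6e* 1569 and 1406 CPM. The median log2 ratio of the 23 genes was 0.15, beside -0.01 over all genes tested in these cells.

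*Lpl*, the lipase that GPIHBP1 holds, was highest by far in alveolar macrophage-like cells, at 2201 CPM (2129 to 2275) in room air against 2340 CPM (2299 to 2381) in hyperoxia. The ratio of 1.06 (1.02 to 1.10) was small in size, although its counting interval lay above 1. After thinning to 2000 UMIs 91.6% and 90.4% of these cells had a UMI. In the same cells 5.5% of 7149 genes were past 2-fold lower and 1.44% higher, and 94.1% of the hyperoxia cells lay in a cluster almost without room air cells. No other compared type reached 400 CPM.

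Of the 14 types with a mean of at least 10 CPM of *Lpl*, 5 were past 2-fold higher and 5 lower, beside 2.92% and 3.25% of all 121992 pairs of a gene and a compared type. Alveolar fibroblast-like cells (221 and 1141) had 70.0 CPM (61.1 to 79.8) in room air against 148 CPM (142 to 155) in hyperoxia, from 223 and 1800 UMIs. The ratio of 2.12 (1.84 to 2.45) was past 2-fold higher, as 2.4% of 8468 genes were in these cells, with 2.07% lower. The rule by which clusters were first named gave a log2 ratio of 0.52 in place of 1.08. Adventitial fibroblast-like cells, with 40 cells in room air, had more *Lpl*, 293 and 254 CPM. Interstitial macrophage-like cells (51 and 119) had 153 and 350 CPM, past 2-fold higher beside 4.62% of 7731 genes higher and 5.01% lower. That ratio turned to a log2 value of -0.13 at clustering resolution 2.

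In AT2-like cells (162 and 839) *Lpl* was 25.2 CPM (19.3 to 32.4) and 67.1 CPM (62.6 to 71.9), a ratio of 2.67 (2.05 to 3.52), where 1.3% of 7323 genes were past 2-fold higher and 1.87% lower. In the cluster with 149 and 156 cells the levels were 25.5 and 33.9 CPM, a log2 ratio of 0.41 (-0.084 to 0.91). B-like cells had 7.96 and 17.9 CPM, and 33 of their 76 hyperoxia UMIs lay in 1 of the B-like clusters (149 hyperoxia cells), while NK-like cells had 8.01 and 7.54 CPM. Classical monocyte-like cells had 71.8 and 35.1 CPM, nonclassical monocyte-like cells 80.7 and 32.8 CPM and myofibroblast-like cells 35.0 and 16.4 CPM, all past 2-fold lower. In a myofibroblast-like cluster of 125 and 256 cells the levels were 18.6 and 14.5 CPM.

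ECs had *Lpl* transcripts too. gCap-like cells had 131 CPM (121 to 142) and 141 CPM (132 to 150), a ratio of 1.07 (0.968 to 1.19), and after thinning 21.1% of cells had a UMI in both libraries. Artery-like cells had 75.1 and 62.0 CPM. aCap-like cells had 31.3 and 13.4 CPM, the second value below that of B-like cells. In the gCap-like cluster of 578 and 31 cells, *Lpl* was higher in hyperoxia, at 131 and 226 CPM, a log2 ratio of 0.79 (0.34 to 1.21) from 596 and 50 UMIs. In the aCap-like cluster of 34 and 213 cells it had 0 and 6 UMIs.

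The genes most like *Lpl* over the same 32 points were *S100a1* (r = 0.816), *Hebp1* (0.790), *Rragc* (0.780), *Hprt* (0.774) and *Cox5a* (0.768), less close than those found for *Gpihbp1*. In alveolar macrophage-like cells *S100a1*, a calcium-binding protein gene, was 497 and 1655 CPM, and *Hebp1*, a heme-binding protein gene, was 539 and 450 CPM. *Rragc* was 101 and 109 CPM, *Hprt* 280 and 285 CPM and *Cox5a* 716 and 770 CPM.

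**Figure D4:**
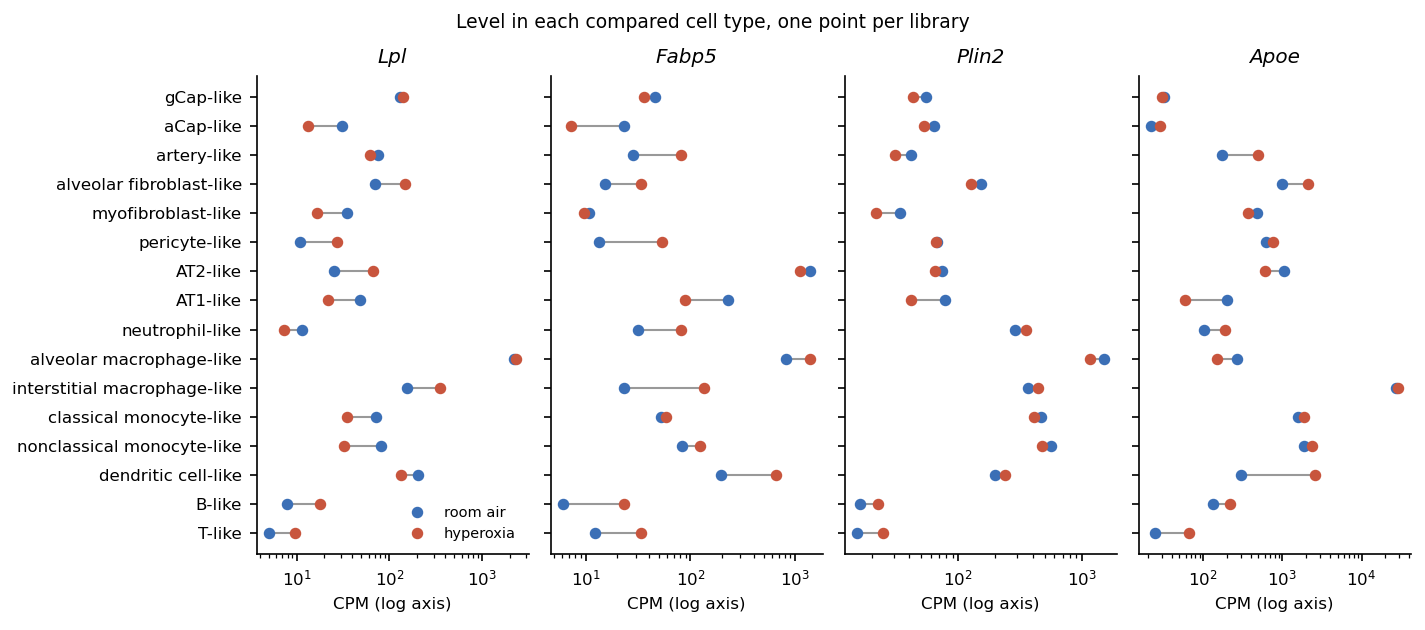
Level in CPM (log axis) of *Lpl*, *Fabp5*, *Plin2* and *Apoe* in 16 cell types, as a point for room air and a point for hyperoxia. The grey line joins the points of a type and is not an interval. *Lpl* stands at 2201 and 2340 in alveolar macrophage-like cells and *Apoe* at 27350 and 29202 in interstitial macrophage-like cells, far above their other types.

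*Cd36*, the fatty acid translocase, was shared by capillary ECs, AT2-like cells and macrophages. It was 1481 CPM (1446 to 1516) in room air against 1173 CPM (1148 to 1199) in hyperoxia in gCap-like cells, a ratio of 0.792 (0.767 to 0.818). In aCap-like cells it was 1539 CPM (1472 to 1609) and 1313 CPM (1288 to 1339), a ratio of 0.853 (0.813 to 0.896). The intervals of gCap-like and aCap-like cells overlapped in room air and lay apart in hyperoxia. Thinned to 2000 UMIs, 90.2% and 80.5% of gCap-like cells and 93.4% and 85.1% of aCap-like cells had a *Cd36* UMI, beside 8.65% and 9.86% of B-like cells. In the gCap-like cluster of 578 and 31 cells *Cd36* was 1474 and 1273 CPM. In the aCap-like cluster of 34 and 213 cells, which had few UMIs per cell, the order was the opposite, at 769 and 1160 CPM. The log2 ratio there was 0.59 (0.091 to 1.13) from 36 and 311 UMIs.

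Artery-like cells had 969 and 321 CPM of *Cd36*, past 2-fold lower at a ratio of 0.331 (0.295 to 0.371), and vein-like cells 436 and 142 CPM. In AT2-like cells the levels were 650 and 659 CPM, a ratio of 1.01 (0.960 to 1.07). Macrophages had the opposite order to ECs, with 468 and 732 CPM in alveolar macrophage-like cells, a ratio of 1.57 (1.45 to 1.69), and 118 and 263 CPM in interstitial macrophage-like cells. Nonclassical monocyte-like cells had 430 and 516 CPM. B-like cells had 44.5 and 57.5 CPM, more than the 33.0 and 11.0 CPM of alveolar fibroblast-like cells, in which 63 of the 105 room air UMIs lay in the same cluster of 44 cells as *Gpihbp1*. Over the 15 types with a mean of at least 10 CPM, *Cd36* was past 2-fold higher in 3 and lower in 3, beside 2.92% and 3.25% of all pairs. The difference between cell types was not tested.

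*Fabp4*, a fatty acid-binding protein gene known from adipocytes, macrophages and some ECs, was near 0 in lung capillaries. gCap-like cells had 6 UMIs in room air and 16 in hyperoxia, 1.30 and 2.34 CPM. Vein-like cells had 1115 and 403 CPM and the few lymphatic-like cells 49.8 and 762 CPM. Artery-like cells had 0 UMIs in room air and 155 CPM in hyperoxia, at least 44.1-fold higher when 0 is read as up to 3 UMIs, and 98.7% of the hyperoxia UMIs lay in 5 cells.

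A cluster of 2 room air and 26 hyperoxia ECs could not be named and was led by *Glycam1*, a gene of high endothelial venules, and *Fabp4*. *Glycam1* UMIs were found in only 3 of its 26 hyperoxia cells and in 0 of its room air cells. The cluster held 48.3% of all *Fabp4* UMIs of the hyperoxia library, at 9760 CPM (9393 to 10139), with a UMI in 20 of the 26 cells. *Gpihbp1* was 1274 CPM in the hyperoxia cells of the cluster, above the 756 CPM of gCap-like cells, and *Cd36* was 1047 CPM. Only 2 of its cells came from room air, so the groups were not compared there. Outside ECs, *Fabp4* was 145 and 97.2 CPM in alveolar macrophage-like cells and 107 and 186 CPM in nonclassical monocyte-like cells. Pericyte-like cells had 16.5 and 187 CPM, with 90.4% of the hyperoxia UMIs in 5 cells, and dendritic cell-like cells 0 and 33.0 CPM, with 93.2% in 5 cells.

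*Fabp5*, a further gene of the family, was highest in room air in AT2-like cells. Their levels were 1393 CPM (1346 to 1441) and 1107 CPM (1088 to 1126), a ratio of 0.794 (0.765 to 0.825). Alveolar macrophage-like cells had 808 CPM (765 to 853) and 1378 CPM (1347 to 1410), a ratio of 1.71 (1.61 to 1.81). Hence AT2-like cells were higher in room air and alveolar macrophage-like cells in hyperoxia, with intervals apart in each. Dendritic cell-like cells had 196 and 661 CPM, and the ratio turned to a log2 value of -0.37 at a doublet rate set to double. Interstitial macrophage-like cells had 23.3 and 135 CPM.

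*Fabp5* was past 2-fold higher in 8 of the 16 types and lower in 2. Over all pairs of a gene and a type these shares were 2.92% and 3.25%. B-like cells were among the 8, with 6.08 and 23.1 CPM, as were T-like cells with 12.2 and 33.9 CPM. The part of free RNA in these values was not tested. In gCap-like cells *Fabp5* was 45.5 and 36.0 CPM, but in the cluster of 578 and 31 cells it was 46.2 and 113 CPM, a log2 ratio of 1.29 (0.63 to 1.89) from 211 and 25 UMIs. In aCap-like cells it was 23.5 and 7.20 CPM, the latter below the B-like level.

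*Plin2*, the coat protein of lipid droplets, had a mean of at least 10 CPM in all 16 types and was past 2-fold in 0 of them. Alveolar macrophage-like cells had 1525 CPM (1465 to 1586) and 1166 CPM (1138 to 1196), a ratio of 0.765 (0.730 to 0.802). Nonclassical monocyte-like cells had 566 and 478 CPM, classical monocyte-like cells 470 and 407 CPM and interstitial macrophage-like cells 366 and 440 CPM. Neutrophil-like cells had 290 and 355 CPM. Among stromal types it was highest in alveolar fibroblast-like cells, 152 CPM (139 to 166) and 126 CPM (120 to 132), and gCap-like cells had 54.8 and 42.8 CPM. In the clusters with at least 20 cells of each library the order was the opposite in both, with intervals that span no difference (log2 ratios of 0.85, -0.23 to 2.03, and 0.32, -0.54 to 1.07).

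*Pparg*, the nuclear receptor on which alveolar macrophages depend, had a mean of at least 10 CPM in 2 of the 16 types. In alveolar macrophage-like cells it was 163 CPM (144 to 184) and 165 CPM (154 to 176), a ratio of 1.01 (0.878 to 1.16). In nonclassical monocyte-like cells it was 94.5 and 56.6 CPM, a ratio of 0.599 (0.389 to 0.896). gCap-like cells had 3 UMIs in room air and 1 in hyperoxia, too few for a ratio.

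*Vldlr*, an endocytic receptor of the LDL receptor family, was a gene of stromal and epithelial types here. Alveolar fibroblast-like cells had 170 CPM (156 to 185) and 176 CPM (169 to 184), a ratio of 1.04 (0.943 to 1.14). In their cluster of 44 and 145 cells, low in UMIs per cell, the levels were 34.7 and 101 CPM. The log2 ratio there was 1.54 (0.18 to 3.14) from 6 and 21 UMIs. Pericyte-like cells had 108 and 77.9 CPM, a ratio of 0.724 (0.573 to 0.916). Of these cells 78.1% and 42.8% lay in clusters over 90% of 1 library, and in the cluster with 22 and 102 cells the levels were 326 and 114 CPM, a log2 ratio of -1.52 (-1.94 to -1.10). AT1-like cells, the thin gas exchange epithelium, had 61.1 and 94.7 CPM, a ratio of 1.55 (1.06 to 2.30). In gCap-like cells it was 3.24 and 3.94 CPM. Over whole types, *Vldlr* was past 2-fold in 0 of the 5 with at least 10 CPM.

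*Slc27a3*, of the fatty acid transport protein family, was 88.2 CPM (78.2 to 99.2) and 75.6 CPM (70.8 to 80.6) in alveolar fibroblast-like cells, a ratio of 0.857 (0.749 to 0.983). In their cluster of 44 and 145 cells, low in UMIs per cell, the order was the opposite. The log2 ratio there was 3.19 (0.41 to 8.62) from 1 and 11 UMIs. Dendritic cell-like cells had 32.9 and 31.2 CPM and adventitial fibroblast-like cells 26.6 and 27.0 CPM. In gCap-like cells it was 7.56 and 2.92 CPM, under the floor of 10 CPM.

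*Apoe*, the apolipoprotein through which lipoprotein remnants are taken up, reached 27350 CPM (26901 to 27805) in room air against 29202 CPM (28889 to 29518) in hyperoxia in interstitial macrophage-like cells, a ratio of 1.07 (1.05 to 1.09). Nonclassical monocyte-like cells had 1881 and 2394 CPM and classical monocyte-like cells 1571 and 1882 CPM. AT2-like cells had 1063 CPM (1022 to 1105) and 602 CPM (588 to 616), a ratio of 0.566 (0.541 to 0.593). Alveolar macrophage-like cells had 267 and 150 CPM. Neutrophil-like cells had 103 and 190 CPM. B-like cells had 134 and 220 CPM, with 72.9 and 83.6 CPM in 1 of their clusters and 258 and 423 CPM in another, and T-like cells had 24.4 and 66.2 CPM.

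In alveolar fibroblast-like cells *Apoe* was 996 CPM (962 to 1031) and 2110 CPM (2084 to 2136), a ratio of 2.12 (2.04 to 2.20). In the cluster with 44 and 145 cells, low in UMIs per cell, it was 474 and 1980 CPM. The order turned, to a log2 ratio of -0.66, under the rule by which clusters were first named. Adventitial fibroblast-like cells had 1354 and 2297 CPM. Artery-like cells had 175 and 500 CPM, with 70.5% of the room air UMIs in 5 cells, while gCap-like cells had 31.9 and 30.4 CPM. Dendritic cell-like cells had 305 and 2567 CPM, with 89.5% of the room air UMIs in 5 cells, and the log2 ratio of 3.08 turned to -1.02 at the doubled doublet rate.

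Counted by cell type, 0 of the 6 genes with a mean of at least 10 CPM in gCap-like cells were past 2-fold, with 2.47% of all genes past 2-fold lower and 1.78% higher, and their median log2 ratio was -0.34 beside -0.01 over all genes. In the cluster of 578 and 31 gCap-like cells *Fabp5* was past 2-fold higher. The 4 others (*Fabp4*, *Pparg*, *Vldlr* and *Slc27a3*) were under that floor. In aCap-like cells 3 of 6 were past 2-fold lower (*Gpihbp1*, *Lpl* and *Fabp5*, beside 2.9% of all genes) and 0 higher (2.21%), with a median of -0.76 beside 0.01. In the aCap-like cluster of 34 and 213 cells, low in UMIs per cell, the log2 ratio was -0.33 (-1.53 to 1.10) for *Gpihbp1*. For *Fabp5* it was 0.066 (-2.10 to 3.27). *Lpl* had 0 and 6 UMIs in that cluster. In interstitial macrophage-like cells 3 of 5 were past 2-fold higher (*Lpl*, *Cd36* and *Fabp5*, beside 4.62% of all genes), with a median of 1.16 beside -0.03. The log2 ratio of *Lpl* there was -0.13 at clustering resolution 2. In alveolar macrophage-like cells 0 of 7 were past 2-fold (5.5% of all genes lower, 1.44% higher), with a median of 0.01 beside -0.20. In AT2-like cells 1 of 6 was past 2-fold higher (*Lpl*, beside 1.3% of all genes). Artery-like cells had 3 of 7 past 2-fold higher (*Fabp4*, *Fabp5* and *Apoe*, beside 5.68% of all genes) and 2 lower (*Gpihbp1* and *Cd36*, beside 5.2%). The log2 ratio of *Gpihbp1* in artery-like cells ran from -3.94 to 0.87 over the alternative settings. Nearly all hyperoxia UMIs of *Fabp4* and most room air UMIs of *Apoe* in artery-like cells lay in a few cells. Alveolar fibroblast-like cells had 3 of 8 higher (*Lpl*, *Fabp5* and *Apoe*, beside 2.4%) and 2 lower (*Gpihbp1* and *Cd36*, beside 2.07%). Their cluster of 44 and 145 cells held 92 of the 102 room air UMIs of *Gpihbp1* and 63 of the 105 of *Cd36*. Under the rule by which clusters were first named, the log2 ratio in alveolar fibroblast-like cells was -0.66 for *Apoe* and 0.52 for *Lpl*. Counts of so few genes are a description of these libraries. These counts include *Gpihbp1*, which was chosen on ECs of these libraries, and the other genes were chosen with earlier results of these data known.

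Around these genes 7 lists of lipid genes were read, also chosen with earlier results of these data known. In gCap-like cells 1 of the 55 measured list genes was past 2-fold lower and 0 higher, a share near that of all genes (2.47% and 1.78%). Of the 7 measured genes of intravascular lipolysis, 0 passed 2-fold, with a median log2 ratio of -0.28. *Lmf1*, needed to fold LPL, was 16.2 and 12.0 CPM and *Furin*, a protease that cleaves LPL and its inhibitors, was 84.2 and 69.5 CPM. Of 11 genes of fatty acid transport and binding 0 passed, with a median of 0.22. *Cav1*, the caveolin gene, was 1298 and 1080 CPM, and *Dbi*, the acyl-CoA-binding protein gene, 164 and 191 CPM. Of 8 genes of lipid droplets and lipases 0 passed, and of 14 genes of fatty acid oxidation 0 passed, with medians of -0.04 and 0.01.

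The 1 list gene past 2-fold in gCap-like cells was *Scarb1*, the HDL receptor, at 282 CPM and 122 CPM, and it was also past 2-fold lower in aCap-like cells, at 223 and 93.3 CPM. The 8 measured regulators had a median of -0.40 with 0 past 2-fold. *Tcf15*, whose product drives fatty acid transport genes in ECs, was 19.9 and 13.7 CPM, *Rxra*, the partner of PPAR receptors, 36.7 and 24.4 CPM, and *Cebpb* 32.6 and 22.0 CPM. *Abcg1*, a lipid efflux transporter gene, was 89.6 and 61.7 CPM. In aCap-like cells *Etfdh*, of fatty acid oxidation, was past 2-fold higher at 10.9 and 22.5 CPM.

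Of 65 list genes measured in alveolar fibroblast-like cells, 6 were past 2-fold higher (beside 2.4% of all genes) and 4 lower (beside 2.07%). *Fabp3*, the heart-type binding protein gene, was 162 and 43.6 CPM and *Mgll*, the monoacylglycerol lipase gene, 136 and 64.1 CPM. *Nrp1*, a co-receptor of VEGF, was 203 and 585 CPM, *Klf15* 11.0 and 35.2 CPM and *Pdk4*, a kinase gene that steers cells toward fatty acid use, 2.51 and 23.9 CPM. The other 5 were *Gpihbp1*, *Cd36*, *Lpl*, *Fabp5* and *Apoe*, given above.

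**Figure D5:**
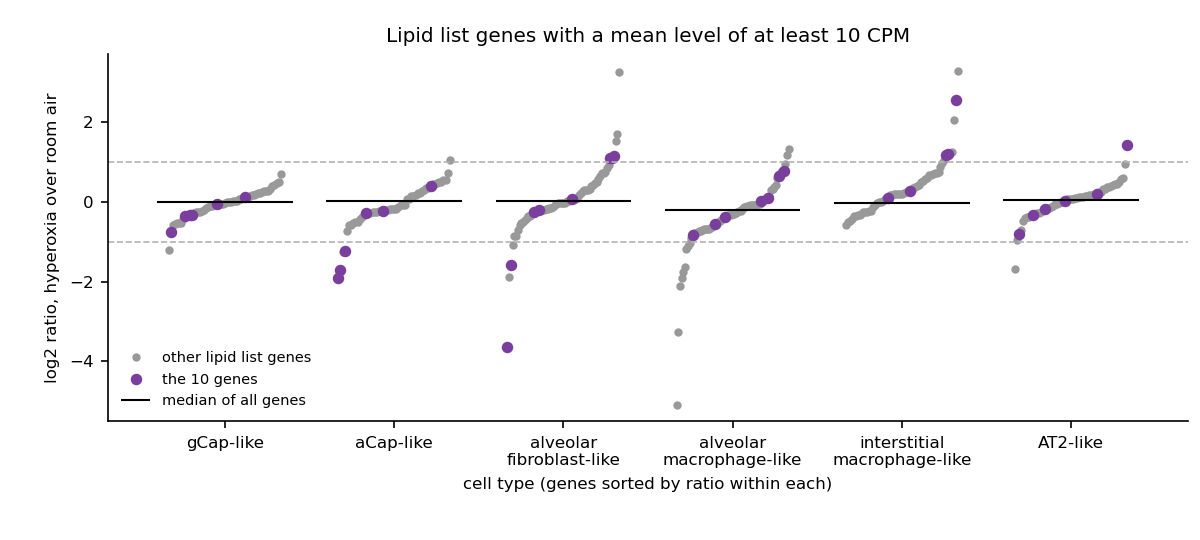
Log2 ratio of hyperoxia over room air (axis) of the lipid list genes with a mean of at least 10 CPM in 6 cell types, with the 10 genes studied here in purple, the median of all genes as a line and a 2-fold difference as dashed lines. In gCap-like cells only *Scarb1* lies past the dashed line, while alveolar macrophage-like cells hold several genes far below it.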

How the data were processed

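Lung cells of 8 pooled mice per group were captured with 10x 3′ chemistry, 1 library per group. Using Cell Ranger and the mm10 reference, the authors made a table of UMI counts for each barcode called as a cell, which they deposited as raw counts without normalization. The methods give version 6.1.1 of Cell Ranger, the submitters' processing notes 2.1.1 and the matrix headers software 3.1.0, and the methods and labels differ in the version of the kit. The deposited barcodes slightly outnumber the cells that the study states.

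Barcodes with fewer than 500 genes or more than 20% of UMIs from mitochondrial genes were dropped, which kept 3809 and 11711. Doublets were ranked against simulated ones, and 129 and 1239 cells were removed, at 0.8% per 1000 barcodes. The 2000 most variable genes, without mitochondrial, sex-linked and lipid list genes, were reduced to 30 components and clustered (20 neighbours, Leiden, resolution 1, seed 1), first into 5 lineages and then within each lineage (Python 3.11.15, numpy 2.4.6, scipy 1.17.1, scikit-learn 1.9.0, igraph 0.11.9, leidenalg 0.10.2). A cluster took the name with the highest marker score if at least 3 markers were raised and its 10 leading genes held no excess of another class. Otherwise it stayed unnamed. Within a lineage a cluster also stayed unnamed if more than 1 leading gene marked another lineage, dividing cells, red cells or platelets. The same held if no marker of its own name was among the leading genes. Clusters with few UMIs per cell and no such marker were left unnamed too. The naming rule was changed more than once after names had been seen, and of the earlier rules only the first is among the alternatives.

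Counts were summed per type and library and scaled to CPM. No test was made because neither group had a replicate, and the intervals cover counting error only. Where a type had 0 UMIs, 3 UMIs were taken as the upper limit. Interval coverage was tested on simulated data. All 10 genes are named in every compared type where results turn on them, list genes where they are past 2-fold in capillary ECs or in the types highest in *Lpl*, *Cd36* or *Apoe*, and some further list genes, neighbours of *Gpihbp1* and EC clusters were chosen after their values were seen. The members and lists were chosen with earlier results of these data known. Other settings were tried, 13 listed at the start and 2 chosen after seeing the data, among them TMM factors (edgeR 4.0.16) and DESeq2 1.42.0 size factors in R 4.3.3. *Apoc2* and *Cetp* of the lists were not analysed here, nor were the study's other experiments.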

Additional observations from a re-analysis of the deposited data

Results flagged for a closer look

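For 4 genes the direction of the difference between hyperoxia and room air was opposite in different cell types, past 2-fold in each. With 1 library per group these differences between types were not tested, and in each pair the types were the extremes of the compared ones. The log2 ratio of *Lpl* was 1.41 in AT2-like cells (25.2 and 67.1 CPM) and -1.30 in nonclassical monocyte-like cells (80.7 and 32.8 CPM), while B-like cells had 7.96 and 17.9 CPM. For *Cd36* it was 1.33 in pericyte-like cells (11.8 and 29.7 CPM, with 70.5% of the hyperoxia UMIs in 5 cells and both levels below those of B-like cells) and -1.60 in artery-like cells (969 and 321 CPM). For *Fabp5* it was 2.53 in interstitial macrophage-like cells (12 and 153 UMIs) and -1.70 in aCap-like cells (30 and 56 UMIs, with 70.0% of those of room air in 5 cells). For *Apoe* it was 3.08 in dendritic cell-like cells, with 89.5% of the room air UMIs in 5 cells, and -1.76 in AT1-like cells (202 and 59.3 CPM), with 79.5% of the room air UMIs in 5 cells. Some of these ratios were not stable. *Lpl* was 0.41 (-0.084 to 0.91) in the AT2-like cluster of 149 and 156 cells. *Fabp5* was 0.066 in the aCap-like cluster of 34 and 213 cells, which had few UMIs per cell. *Apoe* in dendritic cell-like cells turned to -1.02 at the doubled doublet rate.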

How the results depend on the processing

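The log2 ratio of *Gpihbp1* in gCap-like cells was -0.75 and below 0 in each of the 15 alternatives. It was -0.68 with double the doublet rate, -0.67 at resolution 2, -0.84 with each library clustered on its own, -0.60 with each cell named by its own marker score, -0.68 with TMM factors and -0.51 in clusters with at least 20 cells of each library. That of *Lpl* in alveolar fibroblast-like cells was 1.08, and it was 1.31 as a mean over single cells and 0.52 under the naming rule used first. It was 1.47 (0.098 to 3.07) in the cluster with at least 20 cells of each library, from only 6 and 20 UMIs. The cells of that cluster had few UMIs each. The number of the 10 genes past 2-fold in gCap-like cells was 0, but 1 with each cell named by its own score and 2 with no floor on the level. Of 522 alternative values for 35 further ratios past 2-fold, 506 kept their direction and 16 reversed, and 25 of the 35 ratios never reversed. Some alternatives could not reverse such a ratio. The TMM factors of the compared types lay furthest apart in alveolar macrophage-like cells, at 1.09 in room air and 0.916 in hyperoxia. The 506 therefore include values that were bound to keep their direction.

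The log2 ratio of *Gpihbp1* in artery-like cells became 0.091 at resolution 0.5, 0.15 at resolution 2 and 0.87 with the stricter filter. In clusters with at least 20 cells of each library it was 0.079 for *Gpihbp1* and 0.54 for *Cd36* in neutrophil-like cells, and 0.066 for *Fabp5* in aCap-like cells. *Cd36* in neutrophil-like cells was also 1.23 in cells with no UMI of another lineage, 0.47 without doublet removal, 0.54 with double the rate and 0.58 with the stricter filter. *Lpl* was -0.13 in interstitial macrophage-like cells at resolution 2 and -0.088 in B-like cells without doublet removal. *Fabp5* was 0.67 in AT1-like cells without doublet removal and -0.37 in dendritic cell-like cells with double the rate, where *Apoe* was -1.02. *Apoe* in alveolar fibroblast-like cells was -0.66 under the first naming rule. The cause of these reversals was not tested. No paired analysis was possible because each group is 1 library of pooled mice, and no replicate could be left out. Depth limits the low values: in gCap-like cells *Pparg* rests on 3 and 1 UMIs and *Fabp4* on 6 and 16.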

Other observations

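Alveolar macrophage-like cells (125 and 303 cells), the foremost source of *Lpl*, had a level of *Lpl*, *Pparg* and *Plin2* that differed by less than 2-fold, while of 71 measured lipid list genes 9 were past 2-fold lower there and 2 higher, beside 5.5% and 1.44% of all genes. Of 12 measured genes of lipid droplets and their lipases 3 were past 2-fold lower and 0 higher, with a median log2 ratio of -0.32. *Cidec*, whose product enlarges lipid droplets, was 144 and 15 CPM, *Dgat1*, of triglyceride synthesis, 65.2 and 20.9 CPM, and *G0s2*, an inhibitor of the lipase ATGL, 107 and 28.3 CPM. *Fabp1*, the liver-type binding protein gene, was 331 and 9.82 CPM, from 533 and 53 UMIs. *Angptl4*, an inhibitor of LPL, was 167 and 77.6 CPM. The apolipoprotein gene *Apoc1* was 54.7 and 16.1 CPM and *Pltp*, a phospholipid transfer protein gene, 83.2 and 36.5 CPM. The scavenger receptor genes *Marco* (492 and 1222 CPM) and *Msr1* (26.7 and 59.6 CPM) were higher. *Marco* is also among the markers by which these cells were named. Of the other markers, *Chil3* was 10302 and 4273 CPM, *Ear2* 1864 and 608 CPM, *Ear1* 824 and 137 CPM and *Krt79* 145 and 62.4 CPM. *Ctsk* was 218 and 331 CPM, *Atp6v0d2* 858 and 1374 CPM and *Mrc1* 878 and 791 CPM. *Lsr* (42.2 and 20.7 CPM) and *Flt1* (56.5 and 13 CPM) were lower. The 14 genes of fatty acid oxidation had a median log2 ratio of -0.52 with 0 past 2-fold, beside -0.20 over all genes in these cells. The room air and hyperoxia cells lay almost wholly in separate clusters, and the differences were not tested.

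In interstitial macrophage-like cells (51 and 119 cells) 8 of 59 measured list genes were past 2-fold higher and 0 lower, beside 4.62% and 5.01% of all genes. Beside *Lpl*, *Cd36* and *Fabp5* these were *Lrp1*, a receptor of APOE (138 and 326 CPM), *Pnpla2*, which encodes ATGL (33.0 and 75.8 CPM), *Marco* (4 and 85 UMIs), *Sort1* (3 and 27 UMIs) and *Dgat1* (4 and 18 UMIs, a ratio of 2.04 with an interval from 0.674 to 8.31 that spans no difference). The log2 ratio of *Lpl* in these cells was -0.13 at clustering resolution 2. *Marco* is a marker of alveolar macrophage-like cells, where it was 1222 CPM in hyperoxia. The part of such cells or their RNA was not tested. In AT2-like cells, with 57 list genes measured, the 1 list gene past 2-fold besides *Lpl* was *Apoc1*, at 387 and 120 CPM.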
